A study of Mus musculus with 12 samples.

Results

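The 29 genes described here encode subunits of receptors for GABA and glutamate, and they were taken by gene symbol from the table of counts, in which 50563 genes are listed. No cut on a measured value was used to choose them, but earlier results of these data were known when they were chosen. All 29 were found by their Ensembl identifiers in the GRCm38 annotation, and all 29 passed the filter on low counts with which 15688 genes were tested. They fall into 6 receptor classes. The GABA-A receptor has 9 members here, the GABA-B receptor 2, the NMDA receptor 6, the kainate receptor 5 and the metabotropic glutamate receptors 6, and Grid1 is the 1 delta receptor.

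RNA-Seq was made from the brain cortex of 12 E4FAD mice, with 1 library per mouse. All the mice, CTRL included, were APOE4+/+, 5FAD-/+. The human APOE4 gene stands in place of the mouse gene in every cell, whereas the familial Alzheimer's disease transgenes of the 5xFAD line are driven by a neuronal Thy1 promoter. The CTRL group held 7 mice given vehicle by daily oral gavage, 2 aged 12 months and 5 aged 14 months (4 females and 3 males). The 5 mice of the DPAn-6 group received the omega-6 fatty acid docosapentaenoic acid, as its ethyl ester, at 700 mg/kg for 3 weeks, 2 aged 12 months and 3 aged 14 months (3 females and 2 males). Vehicle and DPAn-6 both contained the antioxidants alpha-tocopherol and palmitoyl ascorbic acid, so that no mouse was without them. The sex of single mice is not in the labels and was not used.

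GABA is the main inhibitory transmitter of the cortex and glutamate the main excitatory one. GABA-A, NMDA and kainate receptors are ion channels built from several subunits, and the choice of subunit sets where in the neuron the channel sits and how long it stays open. GABA-B and metabotropic glutamate receptors act through G proteins, many of them on nerve terminals, where they reduce release.

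Total counts per library ranged from 15339098 to 19500154 in CTRL and from 15208803 to 26520251 in DPAn-6, and the members received between 177 counts (Grik1) and 24434 counts (Gabbr1) per mouse. The defining genes of cortical neurons were present in every library, with summed levels of 8700 to 10747 CPM (counts scaled to a common library total) for 8 excitatory neuron genes. Genes of the choroid plexus, a tissue outside the cortex, summed to between 7.96 CPM and 1690 CPM, with the highest value in CTRL 2. In cortex tissue, fewer cells of a type and less RNA per cell cannot be told apart for any gene below.

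One library stood apart in these genes and over all genes tested. CTRL 3 was the highest or the lowest of all 12 mice in 20 of the 29 members (11 highest and 9 lowest). CTRL 2 came next with 15 members, and each of the other 10 mice was at an end in at most 5. The median absolute departure of CTRL 3 from the other 11 mice was 0.39 log2 CPM in the members and 0.40 over all genes. Both were the largest of any mouse, with 0.26 and 0.20 in CTRL 2. The departure of CTRL 3, taken as its log2 CPM minus the mean of the other 11 mice, followed the base composition of the genes. The longest annotated transcripts of the members, from which GC content was taken, hold between 35.3% (Gabrg1) and 65.0% (Grin2d) of G and C. Across the 29 members, the departure and the GC content had a Pearson r of −0.80, and across 15660 genes r was −0.57. These points all come from the same library and are not independent. Other mice also followed GC content, with member r of 0.75 in CTRL 7, −0.71 in CTRL 4 and 0.70 in CTRL 2. Over all genes these were 0.32, −0.29 and 0.36. The departure of CTRL 3 also had an r of 0.62 with log2 exon length in the members, and 0.27 over all genes. Its summed thalamus genes were 341 CPM and its cerebellum genes 36.2 CPM, against 185 to 241 and 18.9 to 23.4 in the other mice. The cause of its departure was not tested. In the 3 members at or below 40% GC, CTRL 3 was higher by a median of 0.80 log2 CPM, and in the 4 members above 60% it was lower in every case, with a median of −0.56. Over all genes of these GC ranges, the medians were 0.66 and −0.70. Grin2b (0.97) and Gabrd (−1.28) departed most. For DPAn-6 against CTRL, the edgeR counts of calls over all members and the class medians are given below with and without this mouse. So are the members in which it moved the difference most. Other counts include this mouse unless stated.

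**Figure D1:**
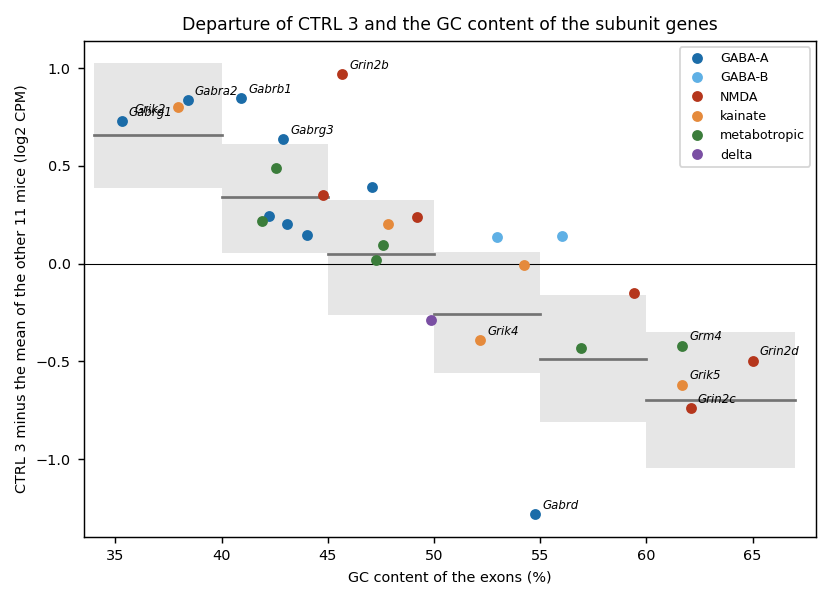
Departure of the library CTRL 3 (its log2 CPM minus the mean of the other 11 mice, vertical axis) against GC content in percent (horizontal axis) for the 29 members, coloured by receptor class. GC content is that of the exons of the longest annotated transcript of each gene. Grey lines and bands give the median and the middle 50% of all genes in each GC range. The members run from 0.97 for Grin2b to −1.28 for Gabrd.

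How differently relatives are spelled is shown by the longest run of residues (7) that all 12 NMDA, kainate and delta subunit genes share, which lies in the membrane segment that forms the gate of the channel. The coding bases of this run with 6 codons on each side are given here for 3 kainate subunits, from the GENCODE M21 transcripts of GRCm38 and 5′ to 3′ on the coding strand, with G or C at the last position of a codon in capitals. Each stretch lies in a single coding exon on the minus strand.
Grik2 (exon 13, chr10:49240675-49240731): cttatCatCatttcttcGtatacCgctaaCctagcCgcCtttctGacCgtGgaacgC
Grik4 (exon 15, chr9:42543854-42543910): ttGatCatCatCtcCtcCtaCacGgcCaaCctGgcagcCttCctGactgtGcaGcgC
Grik5 (exon 16, chr7:25015904-25015960): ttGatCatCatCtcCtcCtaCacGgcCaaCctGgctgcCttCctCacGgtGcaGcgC
Of the 19 codons, 11 end in G or C in Grik2, 17 in Grik4 and 18 in Grik5, and over the whole coding sequence the shares are 49.0%, 70.6% and 80.4%. CTRL 3 departed by 0.80 log2 CPM in Grik2, by −0.39 in Grik4 and by −0.62 in Grik5. Grik1, with 56.4% of its codons ending in G or C, departed by 0.20. Grik3 broke the order, with 76.1% of such codons and a departure of −0.007.

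Levels were ranked between genes only as log2 CPM per kilobase of exon, over all 12 mice. The highest of all was Gabbr1, with 6.90 ± 0.09 (SD, n = 12), which encodes the subunit of the GABA-B receptor that binds GABA. Its obligate partner Gabbr2, which couples to the G protein, had 6.24 ± 0.14 on the same scale. In every mouse Gabbr1 was above Gabbr2. The difference of their log2 CPM, not divided by length, was 0.88 ± 0.15 in CTRL (SD, n = 7) and 0.85 ± 0.06 in DPAn-6 (SD, n = 5).

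The obligate NMDA subunit Grin1, which binds glycine, led its class with 6.12 ± 0.09 (SD, n = 12) log2 CPM per kilobase. The glutamate-binding subunits followed with Grin2b at 4.83 ± 0.33, Grin2c at 3.87 ± 0.23, Grin2a at 3.71 ± 0.20 and Grin2d at 1.76 ± 0.21. Grin2c and Grin2a differed by less than the spread between mice. Grin3a, which lowers the calcium permeability of the channel, had 1.98 ± 0.12 and overlapped with Grin2d.

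In the kainate class the order was Grik5 (5.85 ± 0.21), Grik3 (4.08 ± 0.12), Grik4 (2.31 ± 0.18), Grik2 (2.02 ± 0.25) and Grik1 (0.91 ± 0.20; SD, n = 12). Grik4 and Grik5 encode the high-affinity subunits, which need one of the others to form a channel. Of these 2, Grik5 was among the highest of all members and Grik4 was not. Among metabotropic receptors, Grm3 had 4.98 ± 0.10 and Grm8 had 0.71 ± 0.27, the lowest of all 29. Among GABA-A subunits Gabra3 was highest, at 5.10 ± 0.22, and the gamma subunits Gabrg3 and Gabrg1 lowest, at 1.43 ± 0.26 and 1.03 ± 0.32.

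**Figure D2:**
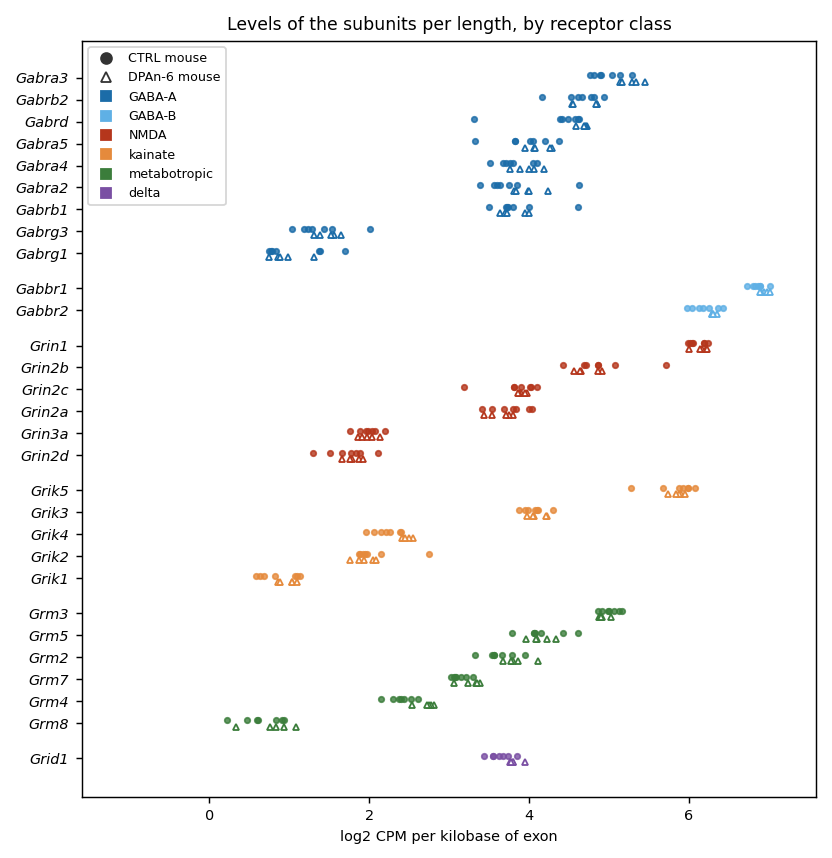
Level of each subunit in log2 CPM per kilobase of exon (horizontal axis), by receptor class and ordered by mean within each class. Filled circles are the 7 CTRL mice and open triangles the 5 DPAn-6 mice. Gabbr1, Gabbr2 and Grin1 lie at the top of the range with means of 6.90, 6.24 and 6.12, and Grm8 at its foot with 0.71.

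With all 12 mice, 0 of the 29 members had an adjusted p below 0.05 for DPAn-6 against CTRL by edgeR's quasi-likelihood test with Benjamini-Hochberg adjustment, where 1.55% of all genes tested passed. At an unadjusted p below 0.05 there were 4 members by edgeR (13.8%), against 14.5% of all genes. DESeq2 and limma-voom also gave 4 each, against 15.6% and 14.5% of all genes. All 4 were higher in DPAn-6, where 5.51% of all genes were called higher and 9.02% lower. The median log2 fold change of the members was 0.05 (20 above 0 and 9 below 0), and that of all genes was −0.005, with 48.7% above 0. No member lay outside −0.26 to 0.29. By the exact permutation test of mean log2 CPM, 4 members had p below 0.05, against 15.8% of all genes.

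**Figure D3:**
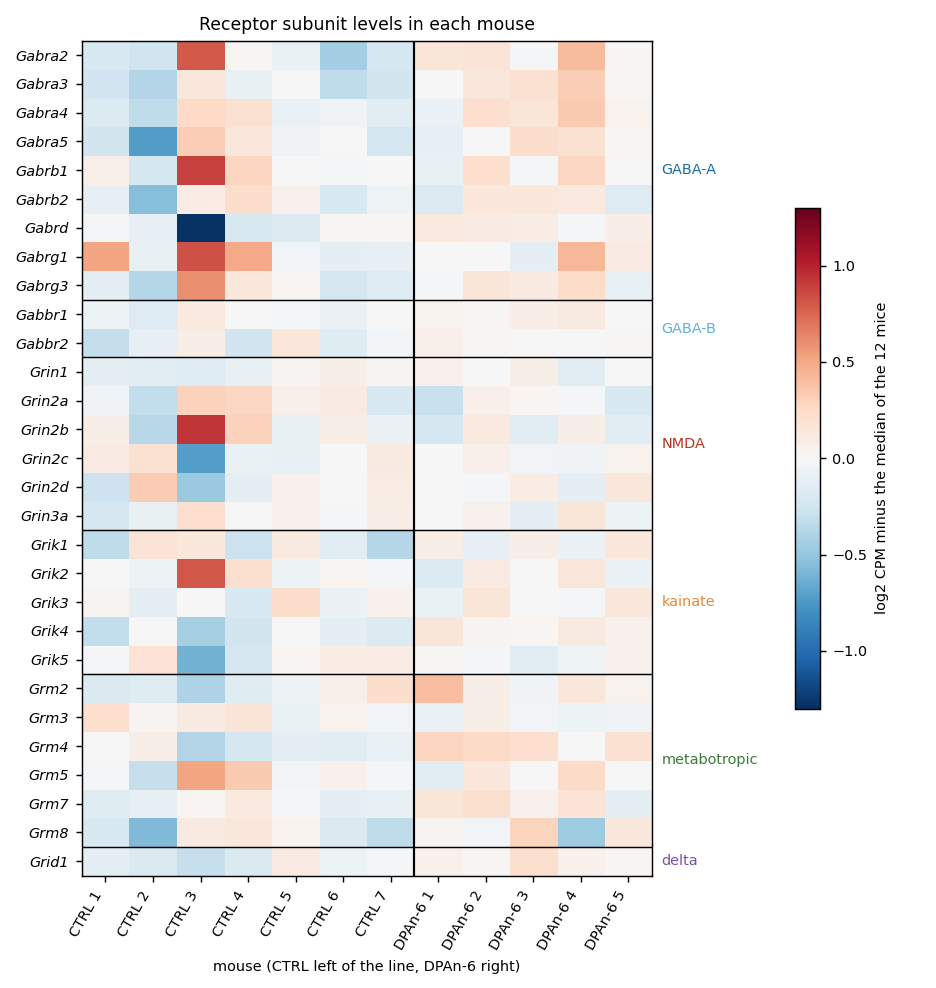
Log2 CPM of each member in each mouse minus the median of the 12 mice (colour), by receptor class, with the 7 CTRL mice left of the line and the 5 DPAn-6 mice right of it. CTRL 3 holds the strongest colours in both directions, 0.97 above the mean of the others for Grin2b and 1.28 below it for Gabrd.

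The 4 members were Grm4, Grik4, Gabra3 and Grid1. Grm4 encodes a presynaptic metabotropic receptor of group III, which inhibits adenylyl cyclase (ENSMUSG00000063239; GRCm38 chromosome 17, 27422387 to 27521403). In CTRL its lowest level was 4.73, its median 4.98 and its highest 5.19 log2 CPM, and the DPAn-6 mice had 5.39, 5.36, 5.32, 5.12 and 5.31. All DPAn-6 mice but the fourth were above every CTRL mouse. DPAn-6 exceeded CTRL by 0.29 on the log2 scale, or 1.23-fold (standard error of the log2 value 0.08), at an adjusted p of 0.0837 by edgeR and an exact permutation p of 0.00379. Its group means were 4.98 ± 0.15 (SD, n = 7) and 5.30 ± 0.11 (SD, n = 5).

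Grik4, the high-affinity kainate subunit whose gate stretch is printed above, was the only member in which the groups did not overlap (ENSMUSG00000032017; chromosome 9, 42518135 to 42944493). Over all genes the groups did not overlap in 3.22%, and in 1.73% with DPAn-6 higher. Its CTRL values had a lowest of 4.53, a median of 4.79 and a highest of 4.97 log2 CPM, and the DPAn-6 mice had 5.13, 5.00, 4.99, 5.08 and 5.02. The gap between the groups was thus small, 4.97 against 4.99. DPAn-6 was higher by 0.23 on the log2 scale (standard error 0.08), at an adjusted p of 0.166 by edgeR and an exact permutation p of 0.00631.

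Gabra3 encodes a GABA-A alpha subunit and lies on chromosome X (ENSMUSG00000031343; 72432681 to 72656848). Its CTRL levels had a lowest of 6.74, a median of 6.88 and a highest of 7.26 log2 CPM, and the DPAn-6 mice had 7.11, 7.26, 7.31, 7.43 and 7.14. The highest CTRL mouse was CTRL 3, and without it every DPAn-6 mouse was above every CTRL mouse. The groups differed by 0.27 on the log2 scale (standard error 0.10), at an adjusted p of 0.20 by edgeR and an exact permutation p of 0.0126.

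Grid1 encodes a delta receptor that binds cerebellins at the synapse and was the weakest of the 4 (ENSMUSG00000041078; chromosome 14, 34820108 to 35583379). Its CTRL levels had a lowest of 6.02, a median of 6.20 and a highest of 6.42 log2 CPM, and the DPAn-6 mice had 6.37, 6.33, 6.53, 6.37 and 6.35. All DPAn-6 mice lay above the CTRL mean, and only the mouse at 6.53 lay above every CTRL mouse. This gave a log2 fold change of 0.16 (standard error 0.07), at an adjusted p of 0.316 by edgeR and an exact permutation p of 0.0240.

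**Figure D4:**
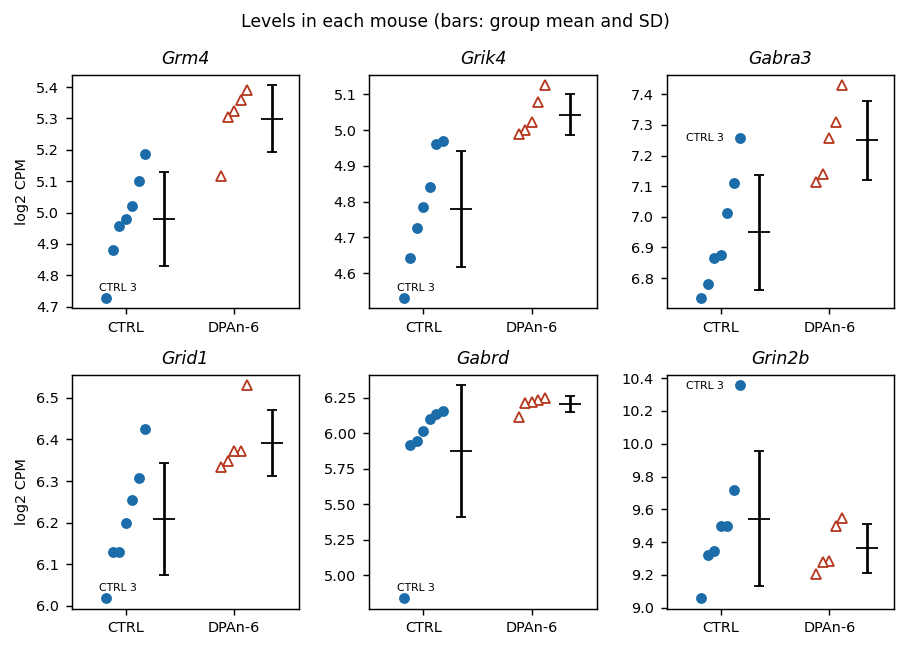
Log2 CPM of Grm4, Grik4, Gabra3, Grid1, Gabrd and Grin2b in each mouse, CTRL as filled circles and DPAn-6 as open triangles, with the group mean and SD as bars and CTRL 3 named. The vertical axes differ between panels. The groups do not overlap in Grik4, and CTRL 3 is the extreme mouse in all 6 panels but the Gabra3 panel, where it is the highest CTRL mouse.

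Among the other GABA-A subunits, Gabra2, which is found at synapses on the axon initial segment, and Gabrd, which forms extrasynaptic channels for tonic inhibition, had the widest CTRL values. These 2 and Grin2b are given by mouse because of CTRL 3, a choice made after their values were seen. In Gabra2, CTRL 3 had 7.56 log2 CPM and the other CTRL mice 6.32 to 6.78, and the DPAn-6 mice had 6.92, 6.93, 6.75, 7.17 and 6.78. In Gabrd, CTRL 3 had 4.84 and the other CTRL mice 5.91 to 6.16, and the DPAn-6 mice had 6.25, 6.23, 6.22, 6.11 and 6.21. In both genes the DPAn-6 mice stayed above most of the CTRL mice, while CTRL 3 lay on opposite sides. The log2 fold change was 0.13 (standard error 0.18) for Gabra2 and 0.26 (standard error 0.16) for Gabrd, with adjusted p of 0.813 and 0.485 by edgeR. Without CTRL 3 they were 0.33 and 0.14, so that leaving out this mouse raised the difference of Gabra2 and lowered that of Gabrd.

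The other GABA-A members had log2 fold changes of 0.15 for Gabra4, which pairs with Gabrd, 0.13 for the mainly extrasynaptic Gabra5, 0.05 for the beta subunit Gabrb2 and 0.04 for the gamma subunit Gabrg3. Their relatives Gabrb1 and Gabrg1 were below 0, at −0.13 and −0.19, with CTRL 3 the highest mouse in both. None of these 6 had an unadjusted p below 0.05 by edgeR. Without CTRL 3 the values were 0.21 for Gabra4, 0.22 for Gabra5, 0.09 for Gabrb2, 0.18 for Gabrg3, 0.04 for Gabrb1 and −0.06 for Gabrg1. For the class, 7 of 9 were above 0, with a median of 0.13, and without CTRL 3 there were 8 of 9, with a median of 0.18. In the 14-month mice alone the class median turned to −0.03, with 4 of 9 above 0. The GABA-B pair had 0.06 (Gabbr1) and 0.08 (Gabbr2), with standard errors of 0.06 and 0.08, and their levels in DPAn-6 stayed inside the range of CTRL.

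No NMDA subunit had an unadjusted p below 0.05 by edgeR, and the median of the 6 was −0.002, or −0.03 without CTRL 3. Grin2b, the subunit that prevails early in life, had the largest difference of the class, −0.26 with a standard error of 0.18. Its CTRL levels had a lowest of 9.06, a median of 9.50 and a highest of 10.36 log2 CPM, the last in CTRL 3, and the DPAn-6 mice had 9.20, 9.55, 9.28, 9.50 and 9.28. All DPAn-6 values lay inside the CTRL range. Without CTRL 3 the log2 fold change of Grin2b was −0.07 (standard error 0.09). Grin2a, which replaces Grin2b in part as synapses mature, had −0.14 (standard error 0.11), and −0.09 without CTRL 3. The difference of Grin2a and Grin2b in log2 CPM, not divided by length, was −1.62 ± 0.26 in CTRL (SD, n = 7). In DPAn-6 it was −1.55 ± 0.10 (SD, n = 5). CTRL 3 had −2.15, where the lowest of the other CTRL mice had −1.65. Grin1, Grin2c, Grin2d and Grin3a were between −0.03 and 0.04.

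In the kainate class, the low-affinity subunits Grik1 and Grik3 and the high-affinity Grik5 had log2 fold changes of 0.08, 0.02 and −0.01. The class median was 0.02, and 0.03 without CTRL 3. Grik2, a principal subunit of kainate receptors in the forebrain, had −0.18 (standard error 0.15), with CTRL 3 at 6.48 log2 CPM and the DPAn-6 mice at 5.49 to 5.82. Without CTRL 3 its log2 fold change was −0.03.

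The 6 metabotropic receptors had a median of 0.12, and 0.15 without CTRL 3. Beside Grm4, the group II autoreceptor Grm2 had 0.19 (standard error 0.10, unadjusted p of 0.0679 by edgeR). Its group II relative Grm3, which astrocytes also express, had −0.12 (standard error 0.07, unadjusted p of 0.0867 by edgeR). The presynaptic group III receptors Grm7 and Grm8 had 0.12 and 0.11, and Grm5, the postsynaptic receptor that couples to phospholipase C, had −0.07. Of these 5, none had an unadjusted p below 0.05.

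Without CTRL 3, 3 members had an adjusted p below 0.05 by edgeR and all were higher in DPAn-6, against 6.1% of all genes tested (2.12% higher). Gabra3 then had a log2 fold change of 0.34 (standard error 0.07, adjusted p of 0.0139 by edgeR). Gabra2 had 0.33 (standard error 0.08, adjusted p of 0.0296) and Grm4 had 0.26 (standard error 0.07, adjusted p of 0.0293), both by edgeR. Grik4 stayed above the threshold, at an adjusted p of 0.0822. At an unadjusted p below 0.05 there were 8 members (27.6%), against 23.1% of all genes, and the others were Gabra4, Gabrd, Gabbr1 and Grid1. The groups did not overlap in 2 members, Grik4 and Gabra3, against 5.27% of all genes. The median SD of the members over the mice was 0.21 log2 CPM with CTRL 3 and 0.16 without it, and the SD fell in 21 of the 29. CTRL 3 was singled out as the mouse most often highest or lowest in these members. A fall in most of them therefore follows from that choice.

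**Figure D5:**
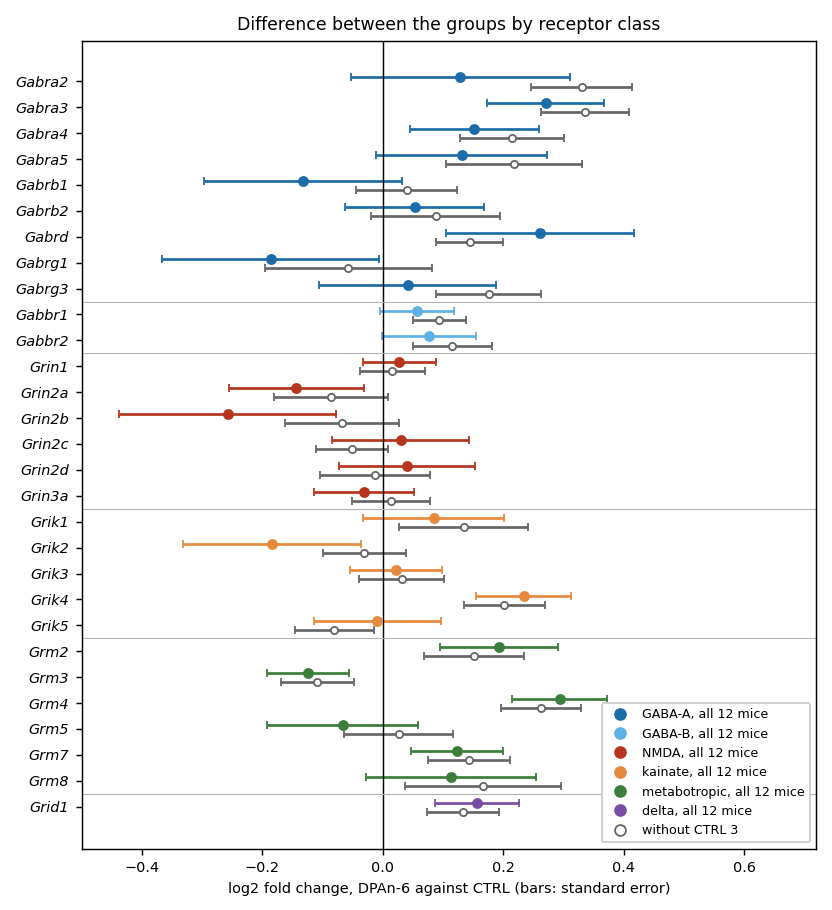
Log2 fold change of each member, DPAn-6 against CTRL, with its standard error from edgeR (horizontal axis), by receptor class. Filled points use all 12 mice and open points leave out CTRL 3. Gabra2 moves from 0.13 to 0.33 and Grin2b from −0.26 to −0.07, while Grm4 stays at 0.29 and 0.26.

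When the trend of each library on gene length and GC content was removed with all 12 mice kept, 3 members again had an adjusted p below 0.05 by edgeR, against 3.42% of all genes (1.59% higher). They were Grik4 (log2 fold change 0.27, adjusted p of 0.0219), Gabra3 (0.27, adjusted p of 0.0231) and Grm4 (0.30, adjusted p of 0.0285). Gabra2 had 0.23, with an adjusted p of 0.0887. At an unadjusted p below 0.05 there were 9 members (31.0%), against 19.9% of all genes. Removing the trend moved the median of all genes to 0.02. DESeq2 on all 12 mice called Grm4 (adjusted p of 0.0121), where it called 4.44% of all genes. The NMDA subunits and Grm3 were called under none of these settings.

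Some genes of other cell types differed along with the group. The summed level of 10 inhibitory neuron genes was 876 to 1060 CPM in CTRL and 1107 to 1288 CPM in DPAn-6, without overlap, and all 10 had a log2 fold change above 0, where 48.7% of all genes were above 0. Of these, 3 had an unadjusted p below 0.05 (Lamp5, Slc32a1 and Vip), against 14.5% of all genes, and 0 had an adjusted p below 0.05 by edgeR. CTRL 3 had the lowest sum, and without it 6 had an unadjusted p below 0.05, against 23.1% of all genes. The 10 microglia genes summed to 838 to 1192 CPM in CTRL and 612 to 817 CPM in DPAn-6, and all 10 were below 0. Selplg, Csf1r and Tmem119 had an adjusted p below 0.05 by edgeR, against 1.55% of all genes, and 6 of the 10 did without CTRL 3, against 6.1%. The marker genes are named here because of their p, after their values were seen. The 10 oligodendrocyte genes summed to 5362 to 7093 CPM in CTRL and 6305 to 7152 CPM in DPAn-6, and 8 were above 0, with a median log2 fold change of 0.21. At an unadjusted p below 0.05, 5 of these were higher, where 5.51% of all genes were. The 9 choroid plexus genes summed to 13.1 to 1690 CPM in CTRL, with 1043 CPM in CTRL 5 beside the highest in CTRL 2, and to 7.96 to 24.3 CPM in DPAn-6. All 5 of them that could be tested were lower at an unadjusted p below 0.05, where 9.02% of all genes were. Their median difference was −2.65 on the log2 scale, and 0 had an adjusted p below 0.05 by edgeR. The 10 astrocyte genes summed to 8074 to 12810 CPM in CTRL, with the highest in CTRL 3, and 7306 to 8930 CPM in DPAn-6, and 4 were lower at an unadjusted p below 0.05 (Gjb6, Slc1a2, Aldoc and Slc1a3). Without CTRL 3, 6 astrocyte genes were lower at this threshold, where 12.5% of all genes were. Of these 10 genes, 3 then had an adjusted p below 0.05 by edgeR, against 6.1% of all genes. For 8 excitatory neuron genes the ranges were 8700 to 10747 CPM in CTRL and 8984 to 9483 CPM in DPAn-6. Of these 8, 1 was higher (Neurod2) and 1 lower (Camk2a) at an unadjusted p below 0.05 by edgeR. For 10 striatal genes the ranges were 349 to 887 and 314 to 696 CPM. All 10 striatal genes lay above 0, and their median difference was 0.32 on the log2 scale. Only Drd1 among them had an unadjusted p below 0.05. Without CTRL 3, 9 of the 10 striatal genes were above 0 and 0 passed this threshold. No gene of these lists was at 0 in all mice, and Kcne2, Otx2 and Cldn2 of the choroid plexus were at 0 in some. The part of these cell types in the differences of the members was not tested.

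Age could be compared within the treatment groups. Between 14 and 12 months, with the group in the model, 0 of the 29 members had an unadjusted p below 0.05 by edgeR, against 1.78% of all genes, and the smallest p was 0.0956 (Grik1). For the interaction of group and age, the count was 0 against 4.26%, with a smallest p of 0.105 (Gabra4). When only the mice of 14 months were kept (5 CTRL and 3 DPAn-6), 2 members had an unadjusted p below 0.05, Grm4 and Grm2, against 8.96% of all genes, and 0 had an adjusted p below 0.05 by edgeR, against 0.0564%.

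Around the receptors, 69 further genes of GABA and glutamate signalling were listed and 62 could be tested. At an unadjusted p below 0.05 there were 10 higher and 7 lower in DPAn-6 (27.4%) by edgeR, against 5.51% of all genes higher and 9.02% lower, or 14.5% in all. Without CTRL 3 there were 16 higher and 10 lower (41.9%), against 23.1% of all genes. With all 12 mice 1 had an adjusted p below 0.05, where 1.55% of all genes did, and without CTRL 3 it was 6 higher and 2 lower, where 6.1% did. The 1 gene was Cbln4, a secreted cerebellin, a family that links presynaptic neurexins with delta receptors. Its DPAn-6 mice had 4.88, 4.48, 4.90, 4.63 and 4.41 log2 CPM, and in CTRL the lowest was 3.75, the median 4.11 and the highest 4.41. The log2 fold change was 0.56 (standard error 0.13, adjusted p of 0.0450 by edgeR). Over 24 other settings its log2 fold change was 0.32 to 0.63, and its adjusted p, from 0.00373 to 0.780, was below 0.05 in 10.

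Of 18 receptor subunits outside the 29, 11 could be tested and 1 had an unadjusted p below 0.05 by edgeR. For this and the next lists the share of all genes is again 5.51% higher and 9.02% lower. Gabrr2, a subunit of the rho type, had −0.79 (standard error 0.26, unadjusted p of 0.00733) and the GABA-A theta subunit Gabrq had −0.67 (unadjusted p of 0.0501), both near 1 CPM or less. Among 8 genes of GABA synthesis, transport and breakdown, 1 was higher and 1 lower at this threshold. Slc32a1, the vesicular GABA transporter, had 0.29 (standard error 0.12) and Abat, the transaminase that breaks GABA down, had −0.17 (standard error 0.06). Among 9 genes of glutamate synthesis and transport, 3 were higher and 2 lower. The neuronal glutamate transporter Slc1a1 had 0.18 (standard error 0.06) and the astrocytic transporter Slc1a2, which is also in the astrocyte list, had −0.42 (standard error 0.13). Among 10 inhibitory scaffold and auxiliary genes, 1 was higher and 2 lower. The lower ones were Kctd12 and Kctd16, cytosolic auxiliary subunits of the GABA-B receptor, at −0.28 and −0.27 with standard errors of 0.09 and 0.09. Of 24 genes listed as excitatory scaffolds or glutamate receptor auxiliary proteins, the cerebellins included, 5 were higher and 1 was lower. At which synapses Cbln4 acts here was not tested. Apart from Cbln4, no gene of these lists had an adjusted p below 0.05 in the reported edgeR fit of all 12 mice. With the length and GC trend removed, 7 of the 62 genes were higher and 2 lower at this threshold. Over all genes, 1.59% were higher and 1.83% lower in that fit. DESeq2 gave 2 of the 62, both higher, where it called 4.44% of all genes.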

How the data were processed

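The authors made poly(A)-selected KAPA mRNA libraries from total cortex RNA, aligned them to the mouse genome GRCm38 (Ensembl) with STAR, which also counted the reads of each gene. The submitters' processing notes name STAR 2.5.3a. The deposited table holds these raw counts, not normalized. Which strand was counted is not given in the sources used here. Genes that overlap on opposite strands could therefore share reads. Exons of other genes on the opposite strand cover 13.5% of Grin1 (Grin1os, 5 to 26 counts per mouse) and 9.66% of Grin2d (Gm45441, 82 to 138 counts, where Grin2d had at least 251), and Gabra4 and Gabrb1 share 46 bases.

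From the counts, log2 CPM was computed with a pseudocount of 0.5 and the library total. Levels per kilobase used merged exons of GENCODE M21, in which 50339 identifiers were matched. Groups were compared with edgeR 4.0.16 in R 4.3.3 (TMM, filterByExpr by group, glmQLFit, glmQLFTest) over all genes and adjusted by the Benjamini-Hochberg method, and single members with an exact permutation test (two-sided) over 792 splits, whose smallest p is 0.00126. The authors name limma-voom, which was run as an alternative with limma 3.58.1. The other alternatives were DESeq2 1.42.0, library totals without TMM, no filter, at least 1 CPM in 5 mice, covariates for age or for Ttr (a choroid plexus gene), the mice of 14 months alone, a block for the replicate number, each mouse left out, and removal of the trend on gene length and GC content within each library, alone and with the block. The fits were also run on simulated counts, with larger changes than any member had and no trend on length or GC content. That run does not bear on differences of the size reported here. Summaries used pandas 2.3.3, scipy 1.17.1 and numpy 2.4.6 under Python 3.11.15.

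The labels give separate mice as replicates, and no pair of libraries agreed within sampling noise. The members and the lists of other genes were chosen with earlier results of these data known. All 29 members are named. Values by mouse are given for members with an unadjusted edgeR p below 0.05 or no overlap between groups. In each pathway list, genes with an adjusted p below 0.05 are named, at most 4, or otherwise the 2 with the smallest p.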

Additional observations from a re-analysis of the deposited data

Results flagged for a closer look

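Of 58 groups of values (29 members in CTRL and in DPAn-6), 7 held a mouse far from the rest of its group by Dixon's test, where chance flags about 1 in 20 groups. CTRL 3 was that mouse in 4 of them. It was the highest CTRL mouse in Gabra2, at 7.56 log2 CPM where the others had 6.32 to 6.78, and in Grik2, at 6.48 where the others had 5.60 to 5.88. It was the lowest in Gabrd, at 4.84 where the others had 5.91 to 6.16, and in Grin2c, at 5.52 where the others had 6.14 to 6.44. The other 3 were in the DPAn-6 group, each in a different mouse. DPAn-6 4 was the lowest in Gabrd, at 6.11 where the others had 6.21 to 6.25, DPAn-6 1 was the highest in Gabbr2, at 9.09 where the others had 9.03 to 9.05, and DPAn-6 3 was the highest in Grid1, at 6.53 where the others had 6.33 to 6.37. These 3 differences are 0.16 log2 CPM or less from the nearest mouse.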

How the results depend on the processing

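The count of members with an adjusted p below 0.05 was 0 in the reported fit, 1 by DESeq2, 3 with the length and GC trend removed, 0 with the trend removed and the replicate block (1.09% of all genes), and 0 to 3 when each mouse was left out in turn. The value of 3 came without CTRL 3. The count at an unadjusted p below 0.05 was 4. It was 2 in the 14-month mice only, 9 with the trend removed, 8 with the trend removed and the replicate block (17.9% of all genes), and 3 to 8 when each mouse was left out, with 8 without CTRL 3. By the exact permutation test it was 4 with TMM-scaled values and with a pseudocount of 2. In 17 members the log2 fold change kept its sign over all 24 alternatives, and in 12 it did not. The adjusted p of Grm4 ranged from 0.0121 to 0.417 over these alternatives, and that of Gabra3 from 0.0139 to 0.770.

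With the mice left out in turn, the log2 fold change was −0.19 to 0.040 in Gabrb1, −0.015 to 0.10 in Gabrb2, −0.014 to 0.18 in Gabrg3, −0.051 to 0.076 in Grin2c, −0.013 to 0.11 in Grin2d, −0.068 to 0.014 in Grin3a, −0.0086 to 0.069 in Grik3, −0.081 to 0.034 in Grik5 and −0.12 to 0.026 in Grm5. In the 14-month mice only it was −0.027 in Gabra5, −0.037 in Gabrb2, −0.089 in Gabrg3 and 0.076 in Grik5. With Ttr as covariate it was −0.071 in Gabrb2, −0.0041 in Grin1 and 0.014 in Grik5. With the trend removed it was 0.0025 in Gabrb1, 0.075 in Grin3a, 0.0046 in Grik5 and 0.011 in Grm5. Grik5 had 0.0074 by limma-voom, 0.013 without TMM and 0.0073 without a filter. The cause of these reversals was not tested.

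The labels do not say whether same-numbered mice were paired, and 5 correlations cannot decide it. The correlation of the deviations of same-numbered mice was 0.088, 0.0092, −0.12, 0.23 and −0.075 over the 5 numbers. With the replicate block, which keeps 10 mice, the count at an unadjusted p below 0.05 was 5, against 12.9% of all genes, and at an adjusted p below 0.05 it was 0, against 0.445%. The log2 fold change was −0.0027 in Gabrg3 and 0.073 in Grik5 with the block, and −0.037 and 0.054 in the same 10 mice with no block, a setting chosen after the data were seen. With the trend removed and the block, it was 0.0024 in Gabrb1, 0.0016 in Grin2a, 0.097 in Grin3a, 0.016 in Grik5 and 0.033 in Grm5. Each member had at least 177 counts in every mouse.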
